A study of Mus musculus with 16 samples.

Results

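The T-box transcription factors of the heart were followed across mouse embryonic hearts that carried altered copies of Tbx5. The members were Tbx5, Tbx3, Tbx2, Tbx18, Tbx20 and Tbx1, taken by gene symbol from the deposited gene table. Each symbol had exactly 1 row, so the group held 6 of 37991 genes. Hearts were collected at midgestation (E10.5), and bulk RNA sequencing gave 16 libraries of 4 genotypes with 4 libraries each. The genotypes were Tbx5 del/CreERT2, with an altered Tbx5 allele on each chromosome, Tbx5 del/+, Tbx5 CreERT2/+, and wildtype (WT). The labels name the alleles only: they do not say which part of Tbx5 the del allele lacks, how CreERT2, a tamoxifen-dependent Cre recombinase, was joined to the gene, or whether any inducing drug was given. They also do not say whether the libraries of 1 genotype came from separate embryos, so a p-value here speaks of the spread among these libraries alone, which may be technical in part.

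T-box proteins bind DNA through a shared domain, the T-box, and the members divide the developing heart between them. Tbx5 and Tbx20 are expressed in heart muscle, where Tbx5, together with Nkx2-5 and Gata4, activates chamber genes such as Gja5, and Tbx20 keeps Tbx2 out of the chambers. Tbx2 and Tbx3 are repressors of the chamber programme in the atrioventricular canal, and Tbx3 also marks the sinus node and the rest of the conduction system. Tbx18 marks the sinus horns and the epicardium. Tbx1 acts in pharyngeal and second heart field mesoderm, outside the formed heart tube.

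Because the members share the T-box, the overlap of their coding sequences bears on how well read counts tell them apart. Among all 15 pairs of members, no run of identical coding bases in the GENCODE vM21 transcripts (GRCm38) was longer than 21 bases. Tbx3 and Tbx2, the repressor pair, shared a run of at most 14 bases. Read length is not given in the sources used here.

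Total counts ran from 21436305 to 42731841 per library. Mitochondrial ribosomal RNA took 62.3% to 78.3% of the counts in 13 libraries, but 42.3% in Tbx5 CreERT2/+ 3, 53.6% in Tbx5 del/CreERT2 3 and 60.6% in WT 4. These 3 lowest are called the low-mitochondrial libraries, although WT 4 lay close to the next one, Tbx5 del/CreERT2 4 at 62.3%. Fits without these 3 are given for Tbx3 and for values that changed sign. For Tbx18 the range over all settings is given. The hearts expressed heart muscle genes strongly, with the troponin gene Tnnt2 at 1140 to 1749 CPM in Tbx5 del/CreERT2 and 1009 to 1665 CPM in WT. CPM is the count scaled to a common library size, with sizes corrected by the TMM method. None of the 7 cardiomyocyte markers passed the test in any contrast, and their median log2 change in Tbx5 del/CreERT2 against WT was 0.13. The foregut markers Foxa2 and Sox2 had at most 3 counts in a library, and Shh had 0. The remaining foregut marker, Nkx2-1, was low but present, at 0.0527 to 0.637 CPM in Tbx5 del/CreERT2 and 0.0875 to 0.427 CPM in WT.

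**Figure D1:**
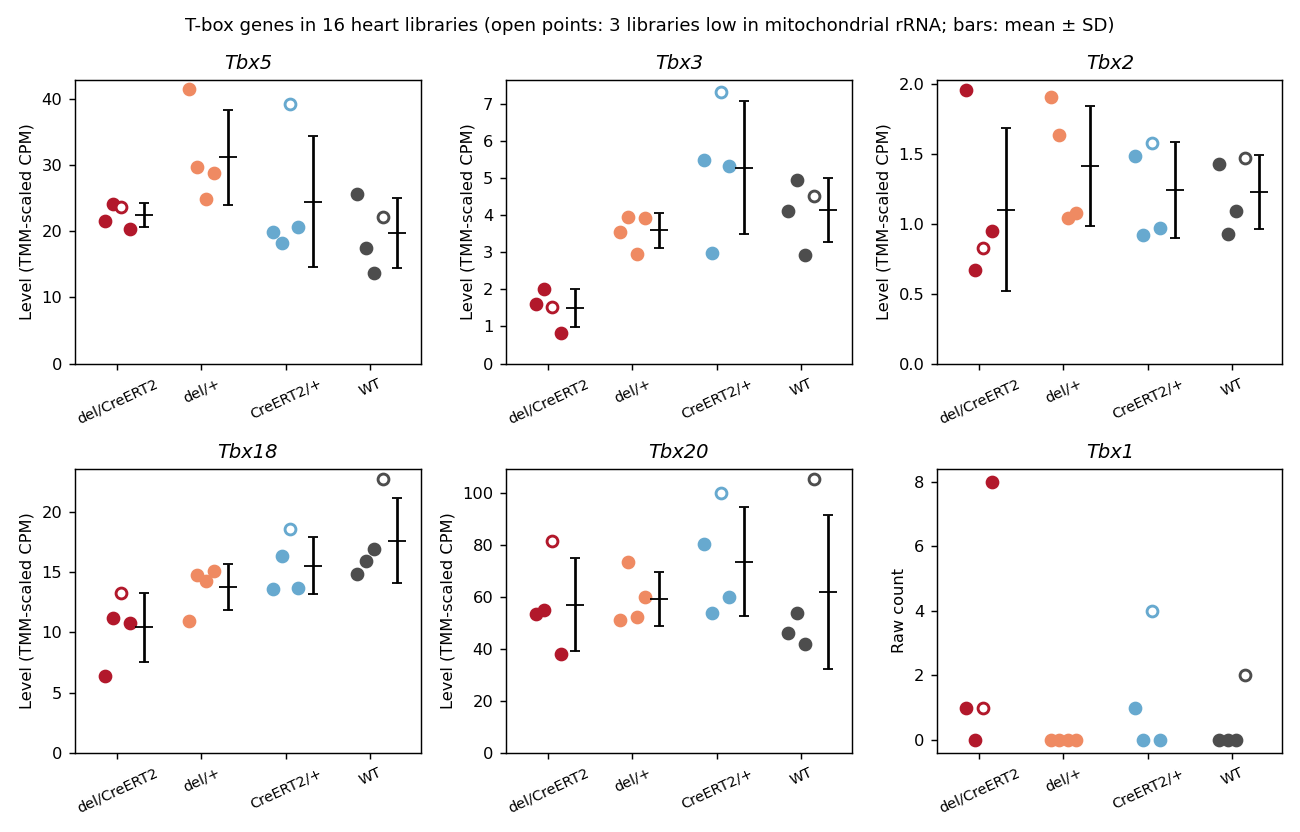
Level of each T-box gene in every library (TMM-scaled CPM; raw count for Tbx1), by genotype, with the mean and SD of 4 libraries as bars. Open points are the 3 low-mitochondrial libraries; the 4 Tbx3 points of Tbx5 del/CreERT2 lie between 0.816 and 2.02 CPM, below all 12 others.

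Among the 6 members, Tbx3 was the one that passed the test: it was lower in Tbx5 del/CreERT2 hearts, 2.77-fold against WT and 3.56-fold against Tbx5 CreERT2/+. Both calls lay near the threshold. Of 24 alternative settings, 8 lost the call against WT and 5 the call against Tbx5 CreERT2/+. The other 4 tested members, Tbx5, Tbx2, Tbx18 and Tbx20, did not pass the threshold in any of the 7 contrasts, which were the 6 pairs of genotypes and the interaction of the 2 alleles. Tbx1 had too few counts to be tested. The threshold was an adjusted p of 0.05 over all 14612 tested genes, in edgeR's quasi-likelihood test with Benjamini-Hochberg adjustment. With Tbx5 del/CreERT2 against WT, 1 of 5 tested members was called, and 0.335% of all tested genes were called (0.151% as lower). With Tbx5 del/CreERT2 against Tbx5 CreERT2/+, 1 of 5 was again called, against 0.0753% of all genes (0.0547% as lower). No member was called in the other contrasts, in which 0.116% of genes were called for Tbx5 del/+ against WT, 0.0342% for Tbx5 CreERT2/+ against WT, 0.0205% for Tbx5 del/CreERT2 against Tbx5 del/+, and 0 of 14612 for Tbx5 CreERT2/+ against Tbx5 del/+ by edgeR, with 611 at an unadjusted p under 0.05. The comparisons of Tbx5 del/CreERT2 share its libraries and are not independent of each other.

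**Figure D2:**
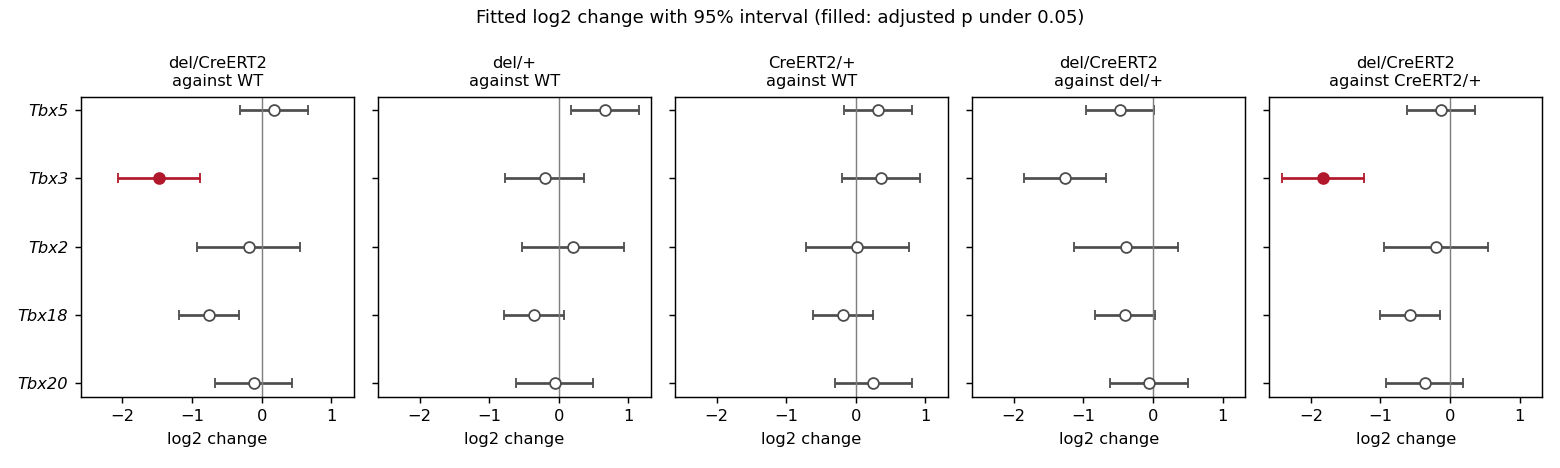
Fitted log2 change of the 5 tested members in 5 comparisons, first genotype over second, with 95% intervals. Filled points passed the adjusted p threshold of 0.05; these are the Tbx3 values of -1.47 against WT and -1.83 against Tbx5 CreERT2/+.

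Tbx5 (ENSMUSG00000018263, chromosome 5, 120284672 to 120335227 on the plus strand in mm9, 9 exon blocks) is the gene whose alleles were altered. Its RNA was present in every library, with 386 to 2035 counts. The levels were 21.5, 24.2, 23.6 and 20.3 CPM in Tbx5 del/CreERT2, 41.5, 29.6, 24.8 and 28.8 CPM in Tbx5 del/+, 19.8, 18.2, 39.2 and 20.6 CPM in Tbx5 CreERT2/+, and 25.7, 17.4, 13.7 and 22.1 CPM in WT. The Tbx5 del/CreERT2 libraries lay close together and inside the WT range, and the Tbx5 del/+ libraries were the highest as a group, though Tbx5 del/+ 3 lay below WT 1. Counts were summed over the gene as a whole, so they do not tell which of its parts the altered alleles lack and are no check on the genotype labels.

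No Tbx5 difference passed the test. The log2 change was 0.18 ± 0.25 (SE) for Tbx5 del/CreERT2 against WT, with a 95% interval of -0.30 to 0.67. For Tbx5 del/+ against WT it was 0.66 ± 0.25, with an unadjusted p of 0.0148 and an adjusted p of 0.708 from edgeR's quasi-likelihood test. The Tbx5 del/CreERT2 libraries all lay below the Tbx5 del/+ libraries, with a log2 difference of -0.48 ± 0.25 and an adjusted p of 0.999 in the same edgeR model. The whole table had 4.19% of genes without overlap between those genotypes (1.72% as lower). Tbx5 CreERT2/+ 3, the library lowest in mitochondrial ribosomal RNA, held 39.2 CPM of Tbx5, against at most 20.6 CPM in the other 3 libraries of its genotype. Without the 3 low-mitochondrial libraries, the log2 difference of Tbx5 del/CreERT2 from Tbx5 CreERT2/+ was 0.17, against -0.13 with them, and neither passed.

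Tbx20 (ENSMUSG00000031965, chromosome 9, 24527648 to 24578746 on the minus strand in mm9), a factor needed for heart muscle growth, was the most abundant member per kilobase in every genotype. Levels were 53.6, 55.1, 81.5 and 38.3 CPM in Tbx5 del/CreERT2, 51.3, 73.6, 52.4 and 60.1 CPM in Tbx5 del/+, 80.4, 53.9, 100.1 and 60.0 CPM in Tbx5 CreERT2/+, and 46.3, 53.7, 41.8 and 105.7 CPM in WT. All genotypes overlapped. The highest library of Tbx5 del/CreERT2, of Tbx5 CreERT2/+ and of WT was in each case the low-mitochondrial one; the part of that difference in the result was not tested beyond the fits without those libraries. The log2 change against WT was -0.11 ± 0.28 in Tbx5 del/CreERT2 and -0.06 ± 0.28 in Tbx5 del/+. Both were positive without those 3, at 0.05 and 0.32, and none passed.

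Tbx3 (ENSMUSG00000018604, chromosome 5, 120120678 to 120134733 on the plus strand in mm9) is the neighbour of Tbx5: its end lies 149938 bp before the Tbx5 start, with 1 other gene of the table between them. Levels were 1.62, 2.02, 1.53 and 0.816 CPM in Tbx5 del/CreERT2, 3.55, 3.96, 2.95 and 3.91 CPM in Tbx5 del/+, 5.50, 2.98, 7.33 and 5.33 CPM in Tbx5 CreERT2/+, and 4.11, 4.94, 2.94 and 4.52 CPM in WT. All 4 Tbx5 del/CreERT2 libraries lay below all 12 others, and the 3 other genotypes overlapped each other. The counts behind these levels were 31 to 89 per library in Tbx5 del/CreERT2 and 110 to 192 in WT, so Tbx3 was a low gene here, with a mean of 1.50 ± 0.50 CPM in Tbx5 del/CreERT2 and 4.13 ± 0.86 CPM in WT (SD, n = 4 each).

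The log2 change of Tbx3 in Tbx5 del/CreERT2 against WT was -1.47 ± 0.30 (SE), with an adjusted p of 0.0277 from edgeR's quasi-likelihood test. Against Tbx5 CreERT2/+ it was -1.83 ± 0.30, with an adjusted p of 0.0137. Against Tbx5 del/+ it was -1.27 ± 0.30 and did not pass (adjusted p = 0.306 by edgeR), while DESeq2 gave an adjusted p of 0.0309 and edgeR without a filter on low counts 0.0271. Neither heterozygote differed from WT past the threshold: the log2 values were -0.20 ± 0.29 in Tbx5 del/+ (95% interval -0.77 to 0.36) and 0.36 ± 0.29 in Tbx5 CreERT2/+ (95% interval -0.20 to 0.92). The interaction, which asks whether the del and CreERT2 alleles together differ from the sum of their separate changes, was -1.63 ± 0.41 for Tbx3 with an unadjusted p of 0.000719 and an adjusted p of 0.473 by edgeR. By that interaction test 0.0411% of all genes were called and no member was.

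The Tbx3 call was near the threshold. Against WT it was lost without Tbx5 del/CreERT2 1, 3 or 4 (adjusted p of 0.0743, 0.0654 and 0.104 by edgeR) and without WT 1, 2 or 4 (0.0643, 0.0995 and 0.0676), while the log2 change stayed between -1.65 and -1.27 over all single libraries left out. Against Tbx5 CreERT2/+ the edgeR adjusted p was 0.0507 without Tbx5 CreERT2/+ 1, 0.0620 without Tbx5 del/CreERT2 3 and 0.0731 without Tbx5 del/CreERT2 4. Without the 3 low-mitochondrial libraries it was 0.0352 against WT and 0.0612 against Tbx5 CreERT2/+. With only these 2 genotypes in the model, the second comparison had an adjusted p of 0.119. The small nuclear RNA 7SK moved with genotype, at 46.4 to 218.1 CPM in Tbx5 del/CreERT2, 174.1 to 691.4 CPM in Tbx5 del/+, 31.0 to 162.7 CPM in Tbx5 CreERT2/+ and 12.3 to 29.6 CPM in WT. With its level as a covariate the adjusted p of Tbx3 by edgeR was 0.202 against WT and 0.00821 against Tbx5 CreERT2/+. All WT libraries held less 7SK than any other library, so this covariate and the contrast with WT cannot be told apart fully.

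The authors' deposited table gives log2 differences in the opposite direction, the first genotype named over the second: 1.47 for WT over Tbx5 del/CreERT2 and 1.80 for Tbx5 CreERT2/+ over Tbx5 del/CreERT2 at Tbx3. In the authors' deposited table the adjusted p-values of Tbx3 were 0.357 and 0.393, so neither passed 0.05 there. For Tbx18 the authors' deposited table has 0.75 for WT over Tbx5 del/CreERT2, with an adjusted p of 0.531.

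Tbx2 (ENSMUSG00000000093, chromosome 11, 85646053 to 85655450 on the plus strand in mm9), the other repressor of the atrioventricular canal, was lower than Tbx3 per kilobase in WT and had 19 to 82 counts per library. Levels were 1.96, 0.673, 0.825 and 0.948 CPM in Tbx5 del/CreERT2, 1.91, 1.64, 1.04 and 1.07 CPM in Tbx5 del/+, 1.49, 0.921, 1.58 and 0.973 CPM in Tbx5 CreERT2/+, and 1.43, 0.926, 1.09 and 1.47 CPM in WT. The genotypes overlapped throughout, and Tbx5 del/CreERT2 held both the highest and the lowest library. The log2 change against WT was -0.19 ± 0.38 in Tbx5 del/CreERT2, with a 95% interval of -0.92 to 0.55. The Tbx3 estimate of -1.47 lay outside that interval, but the Tbx3 interval of -2.06 to -0.89 overlapped it. Whether the changes of Tbx2 and Tbx3 differ was not tested. Smaller changes of Tbx2 could not be told from 0 at this depth.

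Ratios within a library do not depend on how the libraries were scaled. The log2 ratio of Tbx3 counts to Tbx5 counts was -4.64 to -3.58 in Tbx5 del/CreERT2, -3.55 to -2.88 in Tbx5 del/+, -2.61 to -1.85 in Tbx5 CreERT2/+ and -2.64 to -1.82 in WT. Tbx5 del/CreERT2 was separate from every other genotype, though from Tbx5 del/+ only narrowly, at -3.58 against -3.55. Tbx5 del/+ was separate from both Tbx5 CreERT2/+ and WT, whereas the last pair overlapped. Tbx5 itself averaged 31.2 CPM in Tbx5 del/+ and 19.7 CPM in WT, while the Tbx3 levels of these genotypes overlapped. The log2 ratio of Tbx3 to Tbx2 averaged 0.50 in Tbx5 del/CreERT2 (range -0.28 to 1.59), 1.38 in Tbx5 del/+, 2.06 in Tbx5 CreERT2/+ and 1.75 in WT (range 1.42 to 2.42). Here Tbx5 del/CreERT2 overlapped WT through 1 library. The log2 ratio of Tbx18 to Tbx20 overlapped too, at -3.06 to -1.83 in Tbx5 del/CreERT2 and -2.22 to -1.30 in WT. These ratios are descriptions and were not tested, and how often other gene pairs separate the genotypes was not counted. The design named the ratio to Tbx2 alone, and the others were added.

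**Figure D3:**
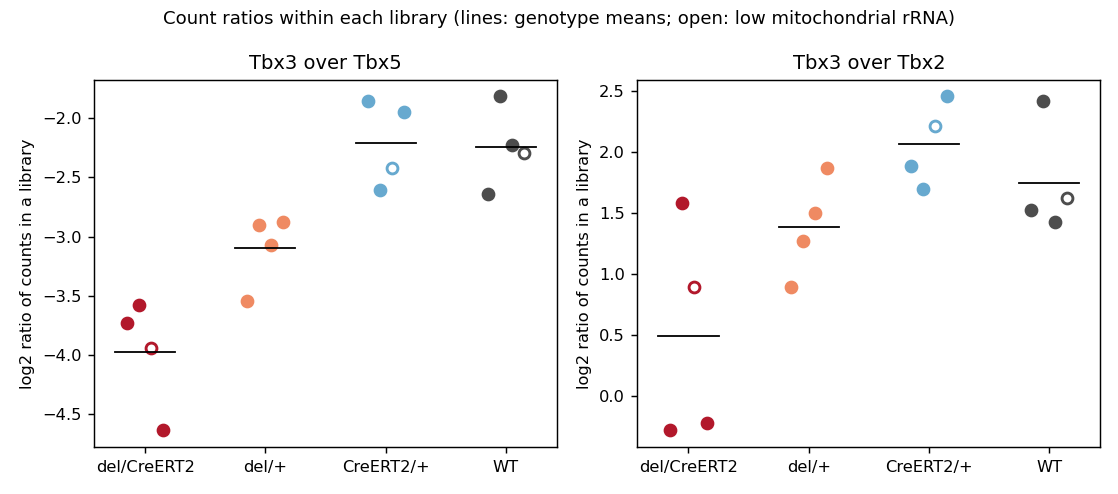
Log2 ratio of raw counts within each library, Tbx3 over Tbx5 on the left and Tbx3 over Tbx2 on the right, by genotype. Lines are means of 4 libraries and open points the 3 low-mitochondrial libraries. The Tbx3 over Tbx5 ratios of Tbx5 del/CreERT2 (-4.64 to -3.58) lie below those of every other genotype, narrowly so for Tbx5 del/+ (from -3.55).

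Tbx18 (ENSMUSG00000032419, chromosome 9, 87597635 to 87626095 on the minus strand in mm9) did not pass the test, with the largest difference between 2 genotypes after those of Tbx3. Levels were 6.42, 11.2, 13.2 and 10.8 CPM in Tbx5 del/CreERT2, 10.9, 14.8, 14.3 and 15.1 CPM in Tbx5 del/+, 13.6, 16.3, 18.6 and 13.7 CPM in Tbx5 CreERT2/+, and 14.8, 15.9, 17.0 and 22.8 CPM in WT. All 4 Tbx5 del/CreERT2 libraries lay below all 4 WT libraries and below all 4 Tbx5 CreERT2/+ libraries, and they overlapped Tbx5 del/+. With Tbx3, 2 of 5 tested members had no overlap between Tbx5 del/CreERT2 and WT, and 4.28% of all genes had none (1.96% as lower). Against Tbx5 CreERT2/+ the same 2 members had no overlap, as did 2.48% of all genes (1.25% as lower).

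The log2 change of Tbx18 in Tbx5 del/CreERT2 was -0.75 ± 0.22 against WT (unadjusted p of 0.00256, adjusted p of 0.249 by edgeR) and -0.58 ± 0.22 against Tbx5 CreERT2/+ (adjusted p = 0.99). Over all alternatives tried, the fit without the low-mitochondrial libraries included, the adjusted p against WT ran from 0.0567 to 0.744. The log2 change ran from -0.91 to -0.50. Tbx18 was also the highest of its genotype in each of the 3 low-mitochondrial libraries. Markers of the epicardium were lower in the same genotype: their summed level was 69.5 to 98.3 CPM in Tbx5 del/CreERT2, 87.8 to 119.6 CPM in Tbx5 del/+, 97.4 to 124 CPM in Tbx5 CreERT2/+ and 99.5 to 126.4 CPM in WT. None of the 8 tested epicardial markers passed, 7 of 8 had a value under 0 against WT, and their median log2 change was -0.50, where the median of all genes was -0.003. The lowest p among them was that of Aldh1a2, the retinoic acid synthesis enzyme of the epicardium, at 3.98 ± 0.92 CPM in Tbx5 del/CreERT2 and 8.72 ± 2.07 CPM in WT (adjusted p = 0.0615 by edgeR). Within each genotype the library with the most Tbx18 had the lowest epicardial sum: 13.2 and 69.5 CPM in Tbx5 del/CreERT2 3, 15.1 and 87.8 CPM in Tbx5 del/+ 4, 18.6 and 97.4 CPM in Tbx5 CreERT2/+ 3, and 22.8 and 99.5 CPM in WT 4. All but Tbx5 del/+ 4 are low-mitochondrial libraries, and the part of library quality in this pattern was not tested. Tbx18, which is not part of that sum, came to 6.79% to 19.1% of its size in Tbx5 del/CreERT2 and 12.8% to 22.9% in WT. In whole hearts, fewer cells of a type and less RNA per cell cannot be told apart, and this holds for Tbx3 as well; the part of cell numbers in these results was not tested.

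Tbx1 (ENSMUSG00000009097, chromosome 16, 18581806 to 18588113 on the minus strand in mm9) was close to undetected, with 17 counts over all 16 libraries and 0 in 10 of them. There were 1, 0, 1 and 8 counts in Tbx5 del/CreERT2, 0 in every Tbx5 del/+ library, 1, 0, 4 and 0 in Tbx5 CreERT2/+, and 0, 0, 0 and 2 in WT. By a 95% Poisson interval, a count of 0 allows up to 3.69 counts, or 0.0949 to 0.189 CPM in the 10 libraries at 0. Tbx5 del/CreERT2 4 held the most Tbx1. Markers of the pharyngeal and second heart field mesoderm were low too, at a summed 6.95 to 8.70 CPM in Tbx5 del/CreERT2 and 6.25 to 7.81 CPM in WT, and none of the 5 tested passed in any contrast. Of these, Eya1 had the lowest p against WT, at 0.731 ± 0.179 CPM in Tbx5 del/CreERT2 and 1.94 ± 0.59 CPM in WT (adjusted p = 0.128 by edgeR). Unlike Eya1, 4 of the 5 tested markers had a log2 change above 0 in that comparison, and the median was 0.59.

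Per kilobase of exon, the order of the members in WT was Tbx20 at 13.8 CPM per kb, Tbx5 at 5.01, Tbx18 at 3.77, Tbx3 at 0.769, Tbx2 at 0.339 and Tbx1 at 0.00726. Tbx5 and Tbx18 did not differ beyond their spread in WT, since their ranges overlapped and Tbx5 was higher in 3 of 4 libraries. The other neighbours did not overlap. The same order held in Tbx5 del/+ and Tbx5 CreERT2/+. In Tbx5 del/CreERT2, Tbx3 at 0.279 CPM per kb and Tbx2 at 0.304 CPM per kb overlapped, and Tbx2 was the higher in 2 of 4 libraries.

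For each tested member, the 3 genes with the most similar levels were taken from 6501 genes with a mean of at least 5 CPM, by Pearson's r of log2(CPM + 1) over the 16 libraries. The points differ in depth and fall into 4 genotypes, so r describes these libraries and was given no p. Tbx3 was most like Cacna2d2, a calcium channel subunit (r = 0.904), Tmem163, a membrane transporter of zinc (r = 0.902), and Odz4, a teneurin (r = 0.85). After the genotype means were taken out, these r values were 0.689, 0.605 and 0.676. Without the 3 low-mitochondrial libraries, and with the genotype means left in, they were 0.891, 0.852 and 0.848. Cacna2d2 stood at 4.46, 6.46, 9.53 and 3.56 CPM in Tbx5 del/CreERT2 and at 19.2, 22.0, 14.6 and 30.7 CPM in WT, without overlap. Its log2 change was -1.84 ± 0.36 against WT (adjusted p = 0.0207 by edgeR) and -2.12 ± 0.36 against Tbx5 CreERT2/+ (adjusted p = 0.0137). Tmem163 fell in the same comparisons, by 1.27 ± 0.25 on the log2 scale against WT and by 1.43 ± 0.25 against Tbx5 CreERT2/+ (edgeR adjusted p of 0.0207 and 0.0137). Odz4 did not pass in either, at -0.94 ± 0.33 and -1.43 ± 0.33 (edgeR adjusted p of 0.469 and 0.152). All 3 genes were picked for their likeness to Tbx3 over these same libraries, genotypes included. Their fall where Tbx3 fell is therefore partly built into the choice and is no separate evidence.

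The other members had different companions. Tbx18 was most like Dsc2, a desmosomal cadherin (r = 0.885), Gucy1a3, a subunit of the nitric oxide receptor guanylate cyclase (r = 0.878), and Stxbp6, a syntaxin-binding protein (r = 0.86). Without the 3 low-mitochondrial libraries these r values were 0.853, 0.824 and 0.813. Dsc2 fell in Tbx5 del/CreERT2 against WT, at 9.48 ± 2.28 CPM and 21.0 ± 6.19 CPM (log2 -1.14 ± 0.23, adjusted p = 0.0286 by edgeR). Gucy1a3 and Stxbp6 did not pass there, at -0.82 ± 0.24 and -0.49 ± 0.19 (edgeR adjusted p of 0.241 and 0.601). As with Tbx3, genes picked for likeness in these libraries give no separate evidence on Tbx18. Tbx20 was most like Bmpr2, a receptor of bone morphogenetic proteins (r = 0.945), the zinc finger factor Zbtb20 (r = 0.94) and the phosphodiesterase Pde3a (r = 0.935). Their r values were 0.878, 0.853 and 0.835 without the 3 low-mitochondrial libraries. Tbx5 was most like the spectrin gene Spnb1 (r = 0.886), the septin gene Sept8 (r = 0.879) and Ehd4, an endocytic ATPase (r = 0.85). Tbx2 was most like Mtus2, a microtubule-associated protein (r = 0.795), and the immediate early genes Jun (r = 0.777) and Dusp1 (r = 0.741). No gene named for Tbx5, Tbx20 or Tbx2 passed the threshold in any contrast. Between members, the highest r was 0.61, for Tbx3 with Tbx18.

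**Figure D4:**
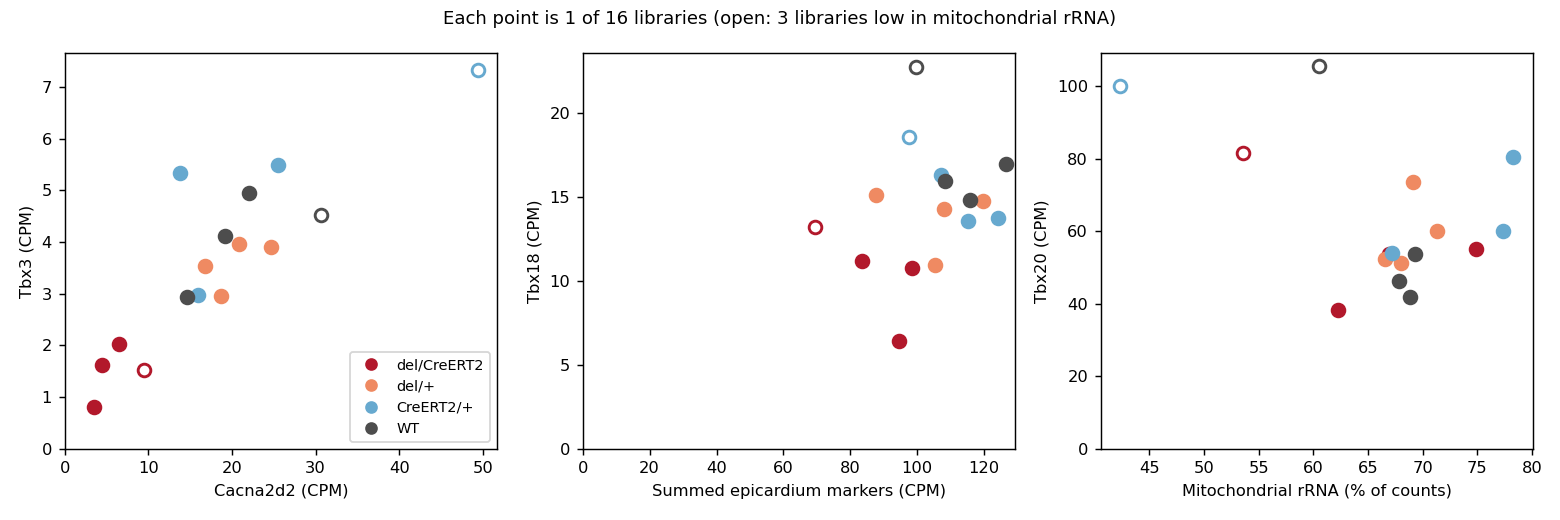
Each point is 1 of 16 libraries, coloured by genotype: Tbx3 against Cacna2d2 (left), Tbx18 against the summed epicardial markers (middle) and Tbx20 against the share of mitochondrial ribosomal RNA (right), levels in TMM-scaled CPM. The Tbx5 del/CreERT2 libraries hold at most 2.02 CPM of Tbx3 and 9.53 CPM of Cacna2d2, and the 3 open points, low in mitochondrial ribosomal RNA, hold 81.5 to 105.7 CPM of Tbx20.

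Genes known to act with or below the T-box members were read from lists. Among 7 chamber genes that Tbx2 and Tbx3 repress, 2 fell in Tbx5 del/CreERT2 against WT, none rose, and the median log2 change was -0.31, where all genes had -0.003. Gja5, the gap junction protein connexin 40, stood at 4.39 ± 1.04 CPM in Tbx5 del/CreERT2 and 53.4 ± 16.5 CPM in WT (SD, n = 4 each; log2 -3.61 ± 0.26, adjusted p = 1.45e-08 by edgeR). Nppa, the natriuretic peptide that both repressors also act on, had 43.5 ± 16.6 CPM and 44.4 ± 11.7 CPM in the same genotypes, a log2 change of -0.03 ± 0.34. The listed genes that passed were lower in the genotype in which Tbx3 was lower. That genotype also has altered Tbx5 alleles, so the parts of Tbx3 and Tbx5 in these values cannot be told apart and were not tested. Among 13 tested genes reported to respond to Tbx5, a list that also holds Gja5, 2 fell and none rose (median log2 -0.24).

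Gja5 was the 1 listed chamber gene that also fell in a heterozygote. It had 18.1 ± 3.00 CPM in Tbx5 del/+ and 33.2 ± 5.22 CPM in Tbx5 CreERT2/+, and the log2 change against WT was -1.56 ± 0.23 in Tbx5 del/+ (adjusted p = 0.00185 by edgeR) and -0.69 ± 0.23 in Tbx5 CreERT2/+ (adjusted p = 1.00). Tbx3 in the same heterozygotes had 3.59 ± 0.47 and 5.28 ± 1.78 CPM, neither past the threshold against the 4.13 ± 0.86 CPM of WT.

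In the list of the atrioventricular canal and its inducers, Cacna2d2 was the 1 of 9 tested genes that passed in Tbx5 del/CreERT2 against WT, and the median log2 change was -0.52, with 4 of the 9 above 0. Bmp2, the ligand that induces Tbx2 and Tbx3 in the canal, missed the threshold at a log2 change of -0.89 ± 0.32 (adjusted p = 0.523 by edgeR). Bmp4, another ligand of that family, lay on the other side of 0, at 0.65 ± 0.33 (adjusted p = 0.915 by edgeR). None of the 4 tested sinus venosus markers passed. Their median was -0.88, and their summed level was 7.26 to 24.0 CPM in Tbx5 del/CreERT2 and 24.3 to 55.4 CPM in WT. Most of that sum was Vsnl1, a calcium sensor, at 10.6 ± 5.39 CPM in Tbx5 del/CreERT2 and 27.9 ± 15.4 CPM in WT. Isl1, a factor of cardiac progenitors and the sinus node, had the opposite sign, at 1.07 ± 0.70 CPM in Tbx5 del/CreERT2 and 0.420 ± 0.290 CPM in WT (log2 1.36 ± 0.74, adjusted p = 0.963 by edgeR). Hcn4, the pacemaker channel, stood at 3.83 ± 1.50 CPM in Tbx5 del/CreERT2 and 8.54 ± 3.11 CPM in WT (adjusted p = 0.249 by edgeR). Shox2, a defining factor of that tissue, had 0 counts in every library, and whether its row could collect reads was not checked. The part of sinus venosus tissue in the Tbx3 result was not tested.

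Among 10 partner factors of the heart, including Nkx2-5, Gata4 and Hand2, none passed in any contrast, and the median log2 change in Tbx5 del/CreERT2 against WT was 0.20. Of 11 further T-box family genes, Mga, a partner of Max, was the 1 with enough counts to be tested. It had 87.8 ± 7.56 CPM in Tbx5 del/CreERT2 and 90.9 ± 18.5 CPM in WT, and did not pass in any contrast. The 10 others had at most 19 counts in any library, and T had 0.

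Markers of tissues beside the heart, in which some members are also expressed, were read in Tbx5 del/CreERT2 against WT. In limb and body wall mesenchyme 1 of 4 tested markers rose: the limb bud factor Lhx2 had 0.147 to 2.34 CPM in Tbx5 del/CreERT2 and 0 to 0.0772 CPM in WT (adjusted p = 0.0315 by edgeR). Hoxd10 and Lmx1b had at most 10 counts in a library. None passed among 6 endothelial, 5 cushion mesenchyme, 6 erythroid and 4 liver markers or the 1 tested foregut marker, with median log2 changes of -0.31, -0.04, -0.24, 0.26 and 0.15. The liver markers differed between libraries of 1 genotype, at a summed 4.64 to 27.2 CPM in Tbx5 del/CreERT2, 0.903 to 233 CPM in Tbx5 del/+, 0.514 to 12.1 CPM in Tbx5 CreERT2/+ and 0.412 to 36.5 CPM in WT.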

How the data were processed

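Hearts were sampled at E10.5 in 16 libraries, 4 per genotype, grouped by the genotype in the labels. The labels' protocols name Qiazol, the miRNeasy micro kit and, for libraries, Ovation RNA-seq system V2. The submitters' processing notes list TopHat2, featureCounts, edgeR and the mm9 build. Their versions and read length are not stated there. The authors deposited whole-number raw counts per gene, none of them an expected count from a model, and they were used without rounding. The authors' deposited comparisons hold log2 differences with p-values and adjusted p-values. Another 52 columns holding per-sample values or means stayed unused. Strand of counting is not stated: Tbx3 shares 115 exon bp with the antisense gene Gm2301, which had 13 counts in all.

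Counts were tested with edgeR 4.0.16 in R 4.3.3 (default filter on low counts, TMM, quasi-likelihood, 1 mean per genotype over 16 libraries), with Benjamini-Hochberg adjustment over 14612 genes. The 95% intervals are fitted log2 changes with normal limits from the SE and are not adjusted. No libraries of a genotype matched within sampling noise. The procedure was tested on simulated data. Alternatives were other size factors, no filter, a mean CPM of at least 5, DESeq2 1.42.0, fewer genotypes, covariates, a replicate block and leaving out libraries. Named genes were the members, the 3 most similar genes of each tested member, and from each of 15 lists the genes that passed or the one with the lowest p; Nppa, Bmp2, Bmp4, Isl1, Tnnt2 and the listed genes with too few counts were named after their values were seen. Of the genes that this rule names, 1 is not reported here. The members and lists were chosen with earlier results of these data known.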

Additional observations from a re-analysis of the deposited data

Results flagged for a closer look

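Among 20 sets of 4 libraries examined (5 members in 4 genotypes), 1 library lay far from the rest: Tbx5 in Tbx5 CreERT2/+ 3 stood at 39.2 CPM, against at most 20.6 CPM in the 3 others of its genotype, a gap of 0.884 of the whole range. Chance puts about 1 in 20 such sets past this limit. The library is also the one with the least mitochondrial ribosomal RNA (42.3% of counts), and it was the highest of its genotype for all 5 tested members; the part of library quality was not tested.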

How the results depend on the processing

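The count of members called in Tbx5 del/CreERT2 against WT was 1; it was 0 with 7SK as a covariate, with a mean CPM of at least 5 (Tbx3 and Tbx2 then not tested) and with the replicate block (Tbx3 adjusted p = 0.0630 by edgeR), and 0 to 1 with single libraries left out. Against Tbx5 CreERT2/+ it was 1, with 0 at a mean CPM of at least 5, without the 3 low-mitochondrial libraries and with only the genotypes compared, and 0 to 1 with single libraries left out. Against Tbx5 del/+ it was 0, with 1 under DESeq2 and with no filter. The cause was not tested. Replicate numbers were not taken as pairs: of 24 same-numbered pairs, 7 had a correlation over 0.1 (median 0.0455). Tbx3 kept its sign in every setting run. Values that changed sign had not passed in any setting. Without the 3 low-mitochondrial libraries they were 0.032 for Tbx2 and 0.051 for Tbx20 in Tbx5 del/CreERT2 against WT, 0.32 for Tbx20 in Tbx5 del/+, -0.027 for Tbx2 in Tbx5 CreERT2/+, and 0.17 for Tbx5 and 0.059 for Tbx2 in Tbx5 del/CreERT2 against Tbx5 CreERT2/+. With 7SK as a covariate they were 0.15 and 0.38 for Tbx20 in Tbx5 del/CreERT2 and Tbx5 del/+, and 0.064 and 0.076 for Tbx18 in Tbx5 del/+ and Tbx5 CreERT2/+, all against WT; with the mitochondrial share as a covariate Tbx20 was 0.016 in Tbx5 del/+. With single libraries left out, Tbx20 ran from -0.36 to 0.27 in Tbx5 del/CreERT2 and from -0.21 to 0.33 in Tbx5 del/+, Tbx5 from -0.009 to 0.449 and Tbx2 from -0.12 to 0.14 in Tbx5 CreERT2/+, all against WT; Tbx20 ran from -0.286 to 0.092 against Tbx5 del/+, and Tbx5 from -0.25 to 0.20 against Tbx5 CreERT2/+, in Tbx5 del/CreERT2. Counts over all genes moved more: 49 called in Tbx5 del/CreERT2 against WT (13 to 189 over the settings), 17 in Tbx5 del/+ (1 to 120), 5 in Tbx5 CreERT2/+ (2 to 73), 3 against Tbx5 del/+ (2 to 65), 11 against Tbx5 CreERT2/+ (2 to 92), 6 for the interaction (2 to 73), and 0 between the heterozygotes (0 to 36, with 611 genes at an unadjusted p under 0.05). Depth limits Tbx2, Tbx3 and Tbx1 most.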
